A study of Mus musculus with 5 samples.

Results

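The 9 genes described here belong to the adipocyte lineage and were taken by symbol: Adipoq, Lpl, Fabp4, Plin1, Plin2, Cebpa, Cebpb, Cebpd and Pparg. All 9 were present among the 12621 genes of the deposited table. Mouse mesenchymal stem cells, cultured stromal cells able to become osteoblasts, chondrocytes or adipocytes, were profiled by RNA sequencing as wild-type cells and as cells with TSG-6 knocked out. TSG-6 is a secreted hyaluronan-binding protein encoded by Tnfaip6. Both groups carried the same strain label, Balb/c (C.129S6), and the tissue of origin, age, passage, culture medium and deleted part of Tnfaip6 are not given in the sources used here. The table held 2 wild-type libraries, named C1 and SE, and 3 knockout libraries, named C1, C2 and SE, and the meaning of these suffixes is not given either. The labels do not tie the libraries to separate animals or cultures, and the p-values therefore reflect only the scatter of these libraries, which may be technical.

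Adipocytes form from stromal progenitors through a cascade of transcription factors. C/EBP-beta and C/EBP-delta, the products of Cebpb and Cebpd, act early and help to switch on Cebpa and Pparg, which then maintain each other and drive the genes of the fat cell. These include genes for fatty acid uptake and transport (Lpl, Fabp4), for the coat of the lipid droplet (Plin1, and the more widely expressed Plin2) and for the secreted hormone adiponectin (Adipoq). Stromal progenitors of the bone marrow can carry part of this program without storing fat.

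Promoter windows of 300 bases, from 250 before to 50 after each start, were matched by symbol in RefSeq (GRCm38.p6) for 6 of the 9 genes: Adipoq, Plin1, Plin2, Cebpa, Cebpb and Pparg. The 250 bases before the start are shown for 3 genes that differed strongly between the groups, the hormone gene Adipoq and the regulators Cebpa and Pparg, for Pparg at the third of its 3 start sites in the table. They lie at chr16:23146286-23146535, chr7:35119043-35119292 and chr6:115421816-115422065, all on the plus strand, 5′ to 3′. Capitals mark exact matches on either strand to any of 5 motifs: TTNNGNAA, which is bound by the C/EBP factors, AGGTCA, which nuclear receptors such as PPAR-gamma recognise, the core promoter element TATAAA, the element CCAAT that is common near start sites, and the E-box with the letters CACGTG. Matches of different motifs may overlap.
Adipoq: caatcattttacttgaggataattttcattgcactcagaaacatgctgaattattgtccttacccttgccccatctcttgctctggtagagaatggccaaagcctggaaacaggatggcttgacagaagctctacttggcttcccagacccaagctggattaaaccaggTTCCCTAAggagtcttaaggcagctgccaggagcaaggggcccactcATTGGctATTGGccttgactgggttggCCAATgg
Cebpa: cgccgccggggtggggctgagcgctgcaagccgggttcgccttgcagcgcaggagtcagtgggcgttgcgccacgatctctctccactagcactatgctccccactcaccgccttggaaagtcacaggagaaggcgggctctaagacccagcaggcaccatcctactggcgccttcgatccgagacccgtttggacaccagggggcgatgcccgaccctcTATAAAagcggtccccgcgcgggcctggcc
Pparg: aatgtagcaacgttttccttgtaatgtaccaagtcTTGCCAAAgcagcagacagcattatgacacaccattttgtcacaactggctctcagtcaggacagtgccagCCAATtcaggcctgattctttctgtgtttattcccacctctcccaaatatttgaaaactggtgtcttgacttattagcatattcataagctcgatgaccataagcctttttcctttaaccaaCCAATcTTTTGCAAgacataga

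In these windows the C/EBP letters matched in Adipoq (first base at -81 from the start), in the third Pparg window (-215 and -16) and in Plin1 (3 matches, at -247, -187 and -58), and not in those of Plin2, Cebpa, Cebpb or the other Pparg starts. Of all 32851 windows of the same length in the table, 40.7% held such a match, so these letters are common. The nuclear receptor letters stood in Plin2 and in the first and second Pparg windows, against 16.3% of all windows. TATAAA stood at -30 in Cebpa, on the minus strand at -29 in the second Pparg window and at 22 after the start in Cebpb, against 13.6% of all windows. CCAAT matched 3 times in Adipoq, at -73 in Plin2, at -83 in the second Pparg window and at -144 and -22 in the third, and 37.4% of all windows held it, while CACGTG matched in Plin2 and in 7.15% of all windows. A match is a description of letters, and no binding was measured.

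Reads recovered from the deposited values, over the 12621 genes, numbered between 13605555 and 26658725 per library. Values are normalised counts, that is, reads of a gene divided by a library size and scaled to 1000000, given per library and as mean ± SD (n = 2 wild-type, n = 3 knockout). The targeted gene Tnfaip6 was at 6.04 and 3.21 in the wild-type libraries C1 and SE and at 1.65, 2.38 and 1.36 in the knockout libraries C1, C2 and SE, so its values did not overlap between the groups, but the difference missed the threshold (limma, adjusted p = 0.0578). Of 11 markers of mesenchymal stem cells, 10 were tested, of which 4 fell (Nt5e, Alcam, Cd44 and Ly6a) and 0 rose, where 17.1% of all tested genes fell and 17.2% rose. None rose with edgeR on recovered reads either, but 2 did with DESeq2 and 3 with the suffix as a block, and 6 of the 10 had an unadjusted p under 0.05 in either direction. The fibronectin and collagen receptor chain Itgb1 was between 1035 and 1431 in every library. Without wild-type C1, and likewise without wild-type SE, Nt5e and Alcam no longer passed the filter on low values, as they were read almost only in the wild type. Cd44 was 9.06-fold lower without wild-type C1 and 10.7-fold lower without wild-type SE, and Ly6a 7.83-fold and 11.4-fold.

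The adipocyte genes rose steeply in the knockout, while the early C/EBP factors and Plin2 did not pass the test. Of the 9 genes tested, 6 rose and 0 fell (limma on log2 of the value plus 0.5, Benjamini-Hochberg over 12484 genes, adjusted p under 0.05), where 34.3% of all tested genes passed, 17.2% higher and 17.1% lower. The median log2 fold change of the 9 was 5.22, beside -0.09 over all tested genes. No member was lower at an unadjusted p under 0.05, and edgeR and DESeq2 on recovered reads gave 6 higher and 0 lower as well. In the same 6 genes every knockout library was above every wild-type library, which held for 28.0% of all tested genes.

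**Figure D1:**
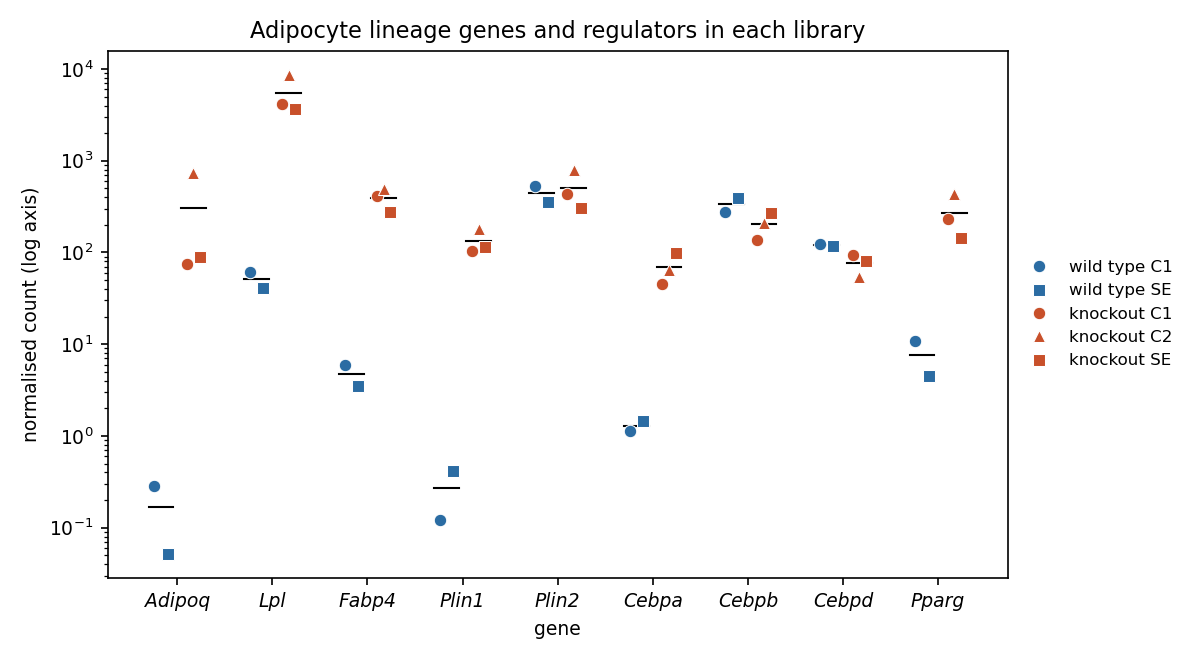
Normalised count (log axis) of each of the 9 genes in the 2 wild-type (blue) and 3 knockout (orange) libraries, with circles for C1, triangles for C2, squares for SE and bars for group means. For Adipoq, Lpl, Fabp4, Plin1, Cebpa and Pparg all knockout points lie above the wild-type points, whereas Plin2, Cebpb and Cebpd stay within a few-fold range and the Adipoq point of knockout C2 stands at 741.

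Pparg encodes PPAR-gamma, the nuclear receptor required for adipocyte formation (chromosome 6, 115360951 to 115490399, plus strand, GRCm38). Its normalised counts were 10.8 and 4.45 in wild-type C1 and SE and 229, 431 and 144 in knockout C1, C2 and SE. All knockout libraries were thus above the wild type, with C2 the highest of them. Pparg rose from 7.64 ± 4.50 to 268 ± 147, 35.1-fold, with a log2 fold change of 5.02 (standard error 0.54, adjusted p = 0.000958). The fold was 60.2 without wild-type C1, 24.8 without wild-type SE and 24.4 without knockout C2. Reads were counted over the whole gene, so its start sites and isoforms cannot be told apart.

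Cebpa encodes C/EBP-alpha, the partner of PPAR-gamma (chromosome 7, 35119293 to 35121928, plus strand). It was at 1.13 and 1.45 in wild-type C1 and SE, from 28 reads each, and at 45.8, 63.7 and 98.5 in knockout C1, C2 and SE. The groups did not overlap, and here SE was the highest knockout library. Cebpa rose 53.7-fold, from 1.29 ± 0.223 to 69.4 ± 26.8 (log2 fold change 5.22, standard error 0.38, adjusted p = 0.000240).

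The early factors of the same family were well expressed in both groups. Cebpb (chromosome 2, 167688915 to 167690418) had values of 278 and 394 in wild-type C1 and SE and of 136, 210.2 and 267 in knockout C1, C2 and SE. Every knockout library was below every wild-type library, which held for 30.7% of all tested genes, and within the knockout C1 was the lowest. The means were 336 ± 82.1 and 204 ± 65.4 (log2 fold change -0.75, standard error 0.34), and the difference did not pass (adjusted p = 0.137). It passed without knockout SE (adjusted p = 0.0399) and with the suffix as a block (adjusted p = 0.0251). Cebpd (chromosome 16, 15887286 to 15891031) was at 122 and 117 in wild-type C1 and SE and at 94.1, 53.9 and 81.0 in knockout C1, C2 and SE. The groups were again apart, with C2 the lowest. Its log2 fold change was -0.68 (standard error 0.29, adjusted p = 0.113), and it passed with the suffix as a block (adjusted p = 0.0464).

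Lpl encodes lipoprotein lipase, which releases fatty acids from circulating triglycerides (chromosome 8, 68880491 to 68907448). Its values were 60.9 and 41.2 in wild-type C1 and SE and 4196, 8665 and 3657 in knockout C1, C2 and SE. It took 0.859% of the reads recovered over the 12621 genes in knockout C2, against 0.00579% in wild-type C1. Lpl rose 108-fold (log2 fold change 6.66, standard error 0.43, adjusted p = 0.000155). Fabp4, the fatty acid carrier of adipocytes (chromosome 3, 10204088 to 10208576), was at 5.92 and 3.52 in wild-type C1 and SE and at 408, 489 and 278 in knockout C1, C2 and SE. Its rise from 4.72 ± 1.69 to 392 ± 106 had the smallest relative spread within the knockout among the 6 genes that rose, with a coefficient of variation of 27.1% (log2 fold change 6.23, standard error 0.34, adjusted p = 8.37e-05).

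The lipid droplet genes differed from each other. Plin1, which encodes the perilipin of mature fat cells (chromosome 7, 79720218 to 79732903, minus strand), had 3 wild-type reads in C1 and 8 in SE, values of 0.122 and 0.414. In knockout C1, C2 and SE it was at 104, 179 and 114. Plin1 rose with a log2 fold change of 7.42 (standard error 0.36, adjusted p = 7.06e-05), and the ratio of read rates was 553 with an exact 95% counting interval from 309 to 1109. The ratio of means was 494, and it was 319.5 without wild-type C1 and 1089 without wild-type SE. Plin2, which coats droplets in many cell types (chromosome 4, 86648386 to 86670060, minus strand), was already at 537 and 356 in wild-type C1 and SE. Its knockout values of 434, 791 and 306 in C1, C2 and SE lay on both sides of them. The means were 447 ± 128 and 510.1 ± 252, the log2 fold change was 0.11 (standard error 0.43, adjusted p = 0.873), and its sign turned without knockout C2 (-0.26).

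Adipoq encodes adiponectin (chromosome 16, 23146536 to 23158028, plus strand). It had 7 wild-type reads in C1 and 1 in SE, values of 0.284 and 0.0518, and values of 75.0, 741 and 90.4 in knockout C1, C2 and SE, from 1596, 19591 and 1261 reads. All knockout libraries were above the wild type, and C2 stood apart from the other two. The ratio of read rates was 2002 with an exact 95% counting interval from 1016 to 4637. Adipoq rose with a log2 fold change of 8.03 (standard error 0.96, adjusted p = 0.00145), the largest change and the largest standard error among the 9 genes. The ratio of means was 1801, and it was 493 without knockout C2, 1065 without wild-type SE and 5834 without wild-type C1.

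Compared within the suffixes, the differences between knockout and wild type had the same sign in the C and in the SE libraries for 8 of the 9 genes. Every knockout library was above every wild-type library in 28.0% of all tested genes and below in 30.7%. Such genes share a sign by necessity, and the full share of all genes with the same sign is not given here. For Pparg the log2 difference was 4.80 in the C libraries and 4.87 in the SE libraries, and for Fabp4 it was 6.12 in both. Adipoq differed by 8.24 and 7.36, Plin1 by 7.78 and 6.97, Lpl by 6.62 and 6.46 and Cebpa by 5.06 and 5.67. The early factors were lower in both, Cebpb by -0.71 and -0.56 and Cebpd by -0.77 and -0.52. Plin2 was the exception, at 0.13 and -0.22. The SE comparison has 1 library per group, and the difference between the suffixes was not tested.

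Per kb of exon sequence (the union of all annotated exons), the order of the levels was different in the groups. In the wild type Cebpb led with 223 ± 54.6 normalised counts per kb, followed by Plin2 with 127 ± 36.4 and Cebpd with 31.9 ± 1.05. Lpl followed at 4.87 ± 1.33, Pparg at 2.59 ± 1.52, Fabp4 at 1.05 ± 0.377 and Cebpa at 0.490 ± 0.0846, with Adipoq at 0.121 ± 0.119 and Plin1 at 0.0576 ± 0.0445. In the knockout Lpl led with 526 ± 262 per kb and Cebpd was last with 20.4 ± 5.48. Between them stood Adipoq (219 ± 275), Plin2 (145 ± 71.7), Cebpb (136 ± 43.5), Pparg (90.8 ± 49.9), Fabp4 (87.3 ± 23.7), Plin1 (28.5 ± 8.73) and Cebpa (26.3 ± 10.2). In the wild type the neighbours Lpl and Pparg, Pparg and Fabp4, and Adipoq and Plin1 lay closer than their standard deviations added together. In the knockout, no gene differed from its neighbour in this order by more than their standard deviations added together, except Fabp4 from Plin1. With the longest principal transcript as length, an alternative chosen after seeing the data, Fabp4 moved from the sixth to the second place in the knockout (437 ± 119 per kb), because its exon union of 4489 bases is far longer than that transcript of 896 bases. Adipoq moved from the second to the fourth place there and Cebpb from the fourth to the sixth. In the wild type Plin2 (237 ± 67.6 per kb) then stood before Cebpb (223 ± 54.6), so the lead in the wild type depends on the length used.

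The 3 knockout libraries were then compared with each other, each as a single library, with no test and with intervals that cover counting error only. Adipoq was 9.88-fold higher in C2 than in C1 (95% counting interval 9.38 to 10.4) and 8.20-fold higher in C2 than in SE (7.75 to 8.69), while C1 and SE were within 1.20-fold of each other. On the log2 scale its difference of 3.30 between C2 and C1 was larger than that of any other of the 12484 tested genes, and 4 genes had a larger difference between C2 and SE. C2 was the highest knockout library for 6 of the 9 genes: Adipoq, Lpl, Fabp4, Plin1, Plin2 and Pparg. The share of all tested genes that were highest in C2 is not given here.

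At 2-fold or more on the log2 scale, 2 of the 9 genes were higher in C2 than in C1 (Adipoq and Lpl) and 0 were lower, where 2.98% of all tested genes were that much higher and 1.41% lower. Lpl was 2.07-fold higher (2.05 to 2.08), Pparg 1.88-fold (1.82 to 1.95), Plin2 1.82-fold (1.78 to 1.87), Plin1 1.72-fold (1.64 to 1.81) and Fabp4 1.20-fold (1.17 to 1.23). Cebpd went the other way, at 0.573 of its C1 level (0.535 to 0.613). Against SE, 4 genes were at least 2-fold higher in C2 (Adipoq, Lpl, Plin2 and Pparg) and 0 lower, beside 3.24% and 12.8% of all tested genes. Pparg was 2.99-fold higher there (2.85 to 3.13) and Plin2 2.59-fold (2.51 to 2.68), whereas Cebpa and Cebpb were lower in C2, at 0.647 (0.602 to 0.695) and 0.788 (0.756 to 0.822) of their SE level. Between SE and C1, Cebpa was 2.15-fold higher in SE (1.98 to 2.34) and was the single member past 2-fold, beside 14.4% of all tested genes higher and 2.87% lower. Cebpb was 1.96-fold higher in SE (1.86 to 2.05), and Pparg was at 0.631 of its C1 level (0.599 to 0.665).

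**Figure D2:**
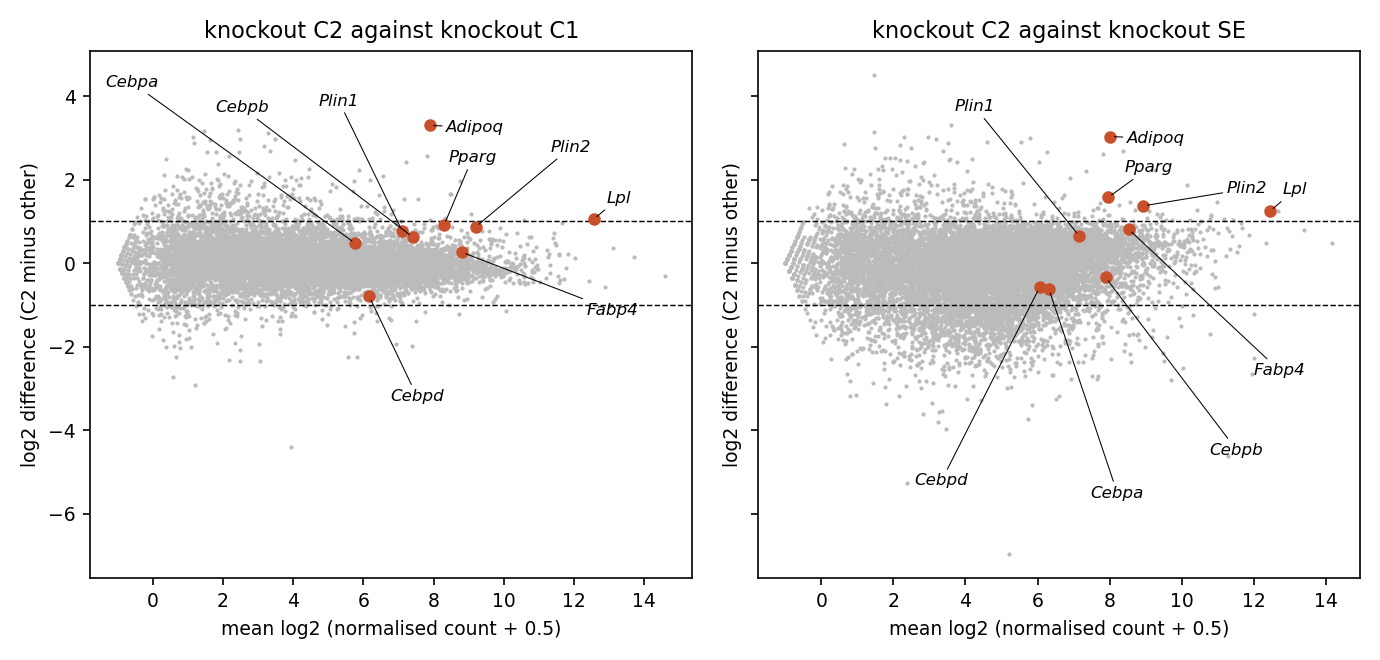
Log2 difference between knockout C2 and knockout C1 (left) or SE (right) against the mean log2 value for all 12484 tested genes (grey) and the 9 named genes (orange), with dashed lines at 2-fold. Adipoq lies at 3.30 and 3.03, apart from genes of like level, while Cebpa, Cebpb and Cebpd lie inside the dashed lines in both panels.

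Between the wild-type libraries the single member past 2-fold after adding 0.5 to each value was Pparg, with 267 reads in C1 and 86 in SE, a rate in SE of 0.412 of that in C1 (0.319 to 0.527), beside 8.19% of all tested genes higher in SE and 1.54% lower. The plain ratios of rates for Adipoq (0.183, counting interval 0.00405 to 1.42) and Plin1 (3.41, 0.818 to 19.9) were further from 1 but rest on 8 and 11 reads, and their intervals include 1. Cebpb was higher in SE than in C1 in both genotypes (1.42-fold in the wild type, 1.96-fold in the knockout), and Plin2 was lower (0.664 and 0.705).

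Among genes with a mean of at least 5, those with the pattern over the 5 libraries most like that of Adipoq were Selenop, the plasma selenium carrier, Hp, which encodes haptoglobin, and Dpep1, a membrane dipeptidase (root mean square differences of 0.82, 0.89 and 0.93 log2 units after centring each gene). In knockout C1 and C2, Selenop had 2308 and 4495, Hp 659.9 and 989, and Dpep1 68.6 and 124. None of the 3 could exceed Adipoq here, as its difference between C2 and C1 was the largest of all tested genes. The closest to Pparg were Kng2, Mustn1 and Rgcc (0.31, 0.32 and 0.36), and the closest to Cebpb were Zcchc11, Anks6 and Sh2b1 (0.07, 0.08 and 0.08).

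Other effector genes of fat cells were listed without the 9: 40 genes for secreted products, fatty acid uptake, triglyceride synthesis, droplet proteins and lipolysis. Of 32 tested, 14 rose and 2 fell, with a median log2 fold change of 1.33 beside -0.09 over all genes, and in 21 every knockout library was above both wild-type libraries, in 2 below. Over all tested genes 17.2% rose, 17.1% fell, and 28.0% and 30.7% lay apart in these directions. The other 8 (Retn, Lep, Plin5, Cidea, Slc2a4, Pck1, Thrsp and Gpihbp1) were not found by symbol among the 12621 genes. G0s2, an inhibitor of the lipase that starts lipolysis, was at 2.31 and 1.71 in wild-type C1 and SE and rose to 139, 175 and 88.4 in knockout C1, C2 and SE (log2 fold change 5.70, standard error 0.35, adjusted p = 0.000135). Fabp5, another fatty acid carrier, rose 8.06-fold and Bscl2, the droplet biogenesis gene of seipin, rose 5.64-fold. Adrb3, the beta-adrenergic receptor of fat cells, had 4 wild-type and 843 knockout reads, a rate ratio of 150.3 (95% counting interval 58.5 to 553). Its ratio of means of 134 was 84.3 without wild-type C1 and 323 without wild-type SE.

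Aqp7, the glycerol channel, had 3 wild-type and 2186 knockout reads, a rate ratio of 519.8 (178 to 2522), and its ratio of means fell from 472 to 261 without knockout C2. Cd36, the fatty acid translocase, had no wild-type read and 1080 in the knockout, where it was at least 114-fold higher at a floor of 3 reads per library. Cfd, Cidec and Plin4 were named after their values were seen. Cfd (adipsin) and Cidec (a droplet fusion protein) also had no wild-type read, and were at least 38.4-fold and 50.3-fold higher. Plin4, another perilipin, was at 1.05 and 1.35 in wild-type C1 and SE and at 41.0, 85.9 and 397 in knockout C1, C2 and SE, and its 145.5-fold rise was 52.8-fold without knockout SE. Cav1, the caveolin abundant in mature fat cells but also in many stromal cells, went the other way: it fell from 1372 ± 147 to 174 ± 60.7 (log2 fold change -3.04, standard error 0.35, adjusted p = 0.00128). Slc27a1, a fatty acid transporter, fell 2.47-fold, a call lost without wild-type C1 (adjusted p = 0.105) or wild-type SE (adjusted p = 0.0794). Without wild-type C1, and likewise without wild-type SE, 9 of the list rose and 1 fell, and without knockout SE 4 fell.

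**Figure D3:**
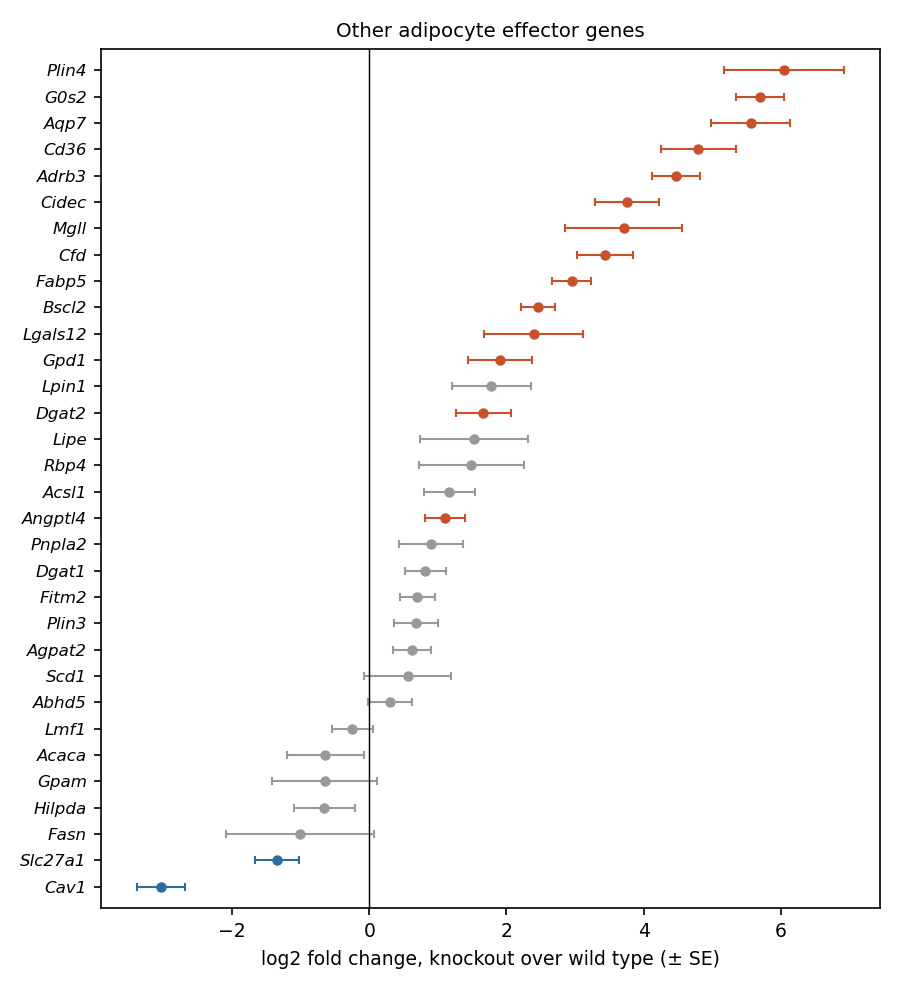
Log2 fold change (knockout over wild type, with standard error) of the 32 tested effector genes of adipocytes other than the 9, in orange where higher and blue where lower at an adjusted p under 0.05, in grey otherwise. Plin4 lies at the top with 6.05 and Cav1 at the bottom with -3.04.

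The same list was also read between the knockout libraries. Of its 32 tested genes, 12 were at least 2-fold higher in C2 than in C1 and 0 lower, beside the 2.98% and 1.41% of all tested genes given above. Against SE, 10 were higher in C2 and 6 lower (Gpam, Lpin1, Plin4, Fasn, Scd1 and Acaca), beside 3.24% and 12.8%. The genes named next were chosen after their values were seen. Mgll, the monoglyceride lipase, was at 3.48, 30.8 and 5.30 in knockout C1, C2 and SE, and Lipe, the hormone-sensitive lipase, at 3.48, 24.9 and 9.17. Pnpla2, the triglyceride lipase, was at 110.4, 322 and 129.8, with C2 again the highest. Between SE and C1, 7 of the 32 were higher in SE and 1 lower in the knockout (14.4% and 2.87% of all tested genes), and 5 were higher and 1 lower in the wild type (8.19% and 1.54%). Fasn, the fatty acid synthase, was at 63.7 and 270.4 in wild-type C1 and SE and at 32.4, 29.4 and 283 in knockout C1, C2 and SE. Scd1, a fatty acid desaturase, was at 27.1 and 74.9 in the wild type and at 57.6, 37.6 and 135.9 in the knockout, and neither gene passed the test between the groups (adjusted p = 0.507 and 0.533).

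Among 32 listed activators of adipocyte formation, 30 were tested, of which 7 rose and 4 fell (median log2 fold change 0.26), and the groups did not overlap for 12 higher and 8 lower genes. Over all tested genes 17.2% rose and 17.1% fell, and 28.0% and 30.7% did not overlap. The counts of higher activators lie somewhat above these shares and those of lower activators somewhat below, and the difference was not tested. Ebf1, an early B-cell factor that acts upstream of Pparg and Cebpa, rose from 3.22 ± 1.70 to 234 ± 19.8 (log2 fold change 6.05, standard error 0.33, adjusted p = 8.61e-05). Its ratio of means was 72.7, and it was 116 without wild-type C1 and 53.0 without wild-type SE. Nr1h3, which encodes the oxysterol receptor LXR-alpha, rose 29.9-fold and Ebf2 rose 22.1-fold. Klf15 rose 5.50-fold and Klf9 2.97-fold, the latter not without wild-type SE (adjusted p = 0.0599). Zfp423, a preadipocyte commitment factor, had 11 wild-type and 286 knockout reads and rose 18.9-fold, between 12.2 and 41.7 without single libraries, a call lost without wild-type C1 (adjusted p = 0.0938) or wild-type SE (adjusted p = 0.0544).

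Klf5, another activator, fell from 73.7 ± 2.75 to 6.38 ± 1.99, 11.5-fold, and Nfib fell 5.84-fold. Ppargc1a, the coactivator of mitochondrial genes, had 83 wild-type and 2 knockout reads, and the ratio of rates was 58.2 (95% counting interval 15.6 to 488). Med1, a Mediator subunit that binds PPAR-gamma, fell 2.13-fold, and this call was lost without any single library but knockout SE (adjusted p between 0.0776 and 0.160). Rxra and Rxrb, which encode partners of PPAR-gamma, were not called (adjusted p = 0.420 and 0.153). Without wild-type SE 2 of the activators fell. With the suffix as a block 14 rose and 7 fell, and without both SE libraries 11 rose.

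**Figure D4:**
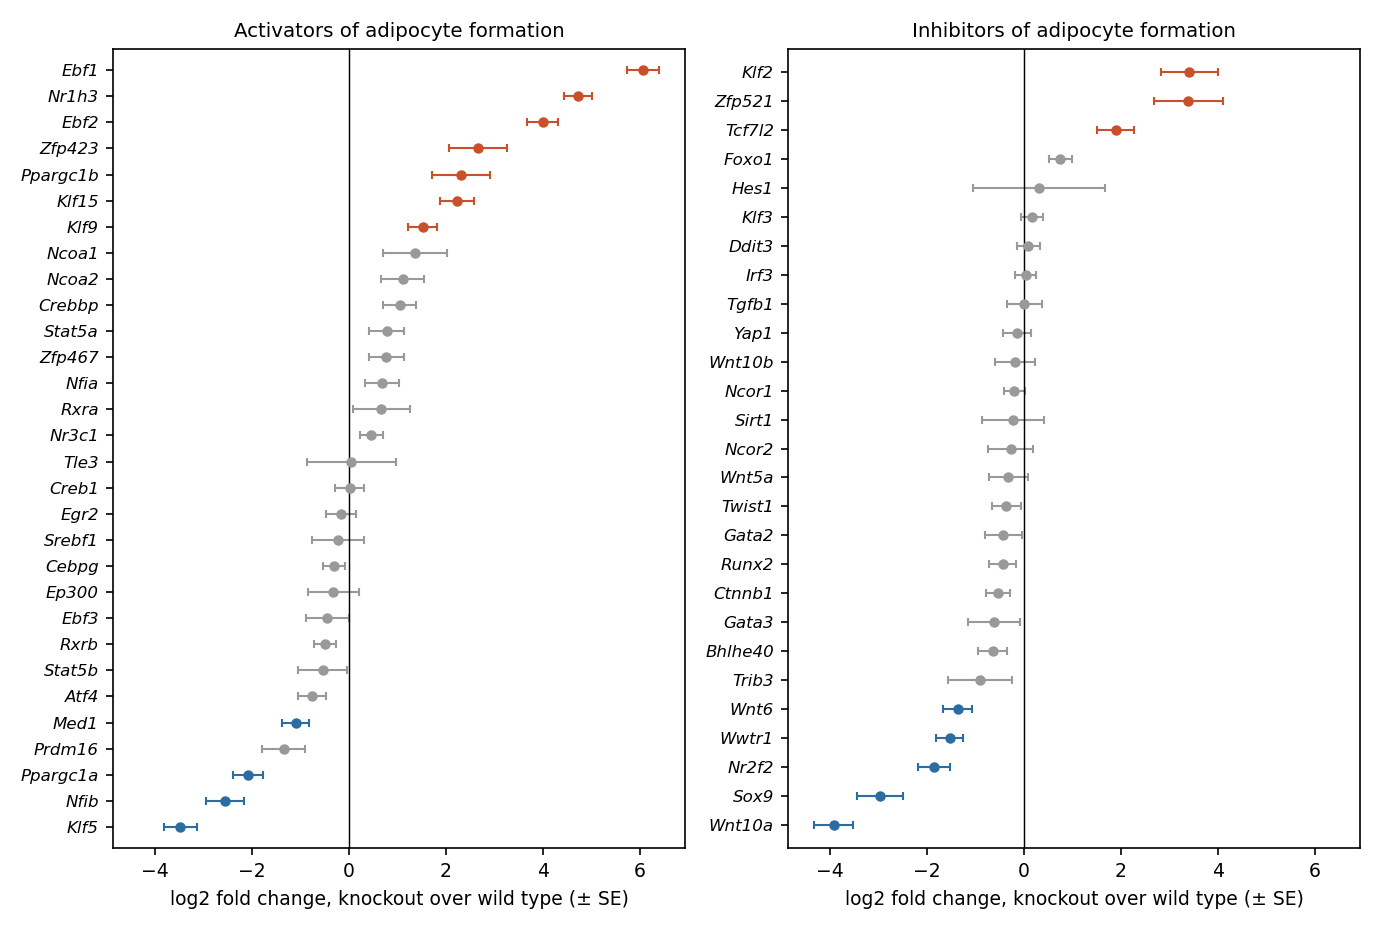
Log2 fold change (knockout over wild type, with standard error) of 30 activators (left) and 27 inhibitors (right) of adipocyte formation, in orange where higher and blue where lower at an adjusted p under 0.05, in grey otherwise. Both panels hold genes on either side of 0, from Ebf1 at 6.05 to Klf5 at -3.47 among activators and from Klf2 at 3.41 to Wnt10a at -3.92 among inhibitors.

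Of 30 inhibitors of adipocyte formation, 28 were present and 27 were tested, of which 3 rose and 5 fell (median -0.27). The groups did not overlap for 4 higher and 9 lower genes of the 28, which include the untested Dlk1. These counts lie near or below the shares of all tested genes (17.2% and 17.1% called, 28.0% and 30.7% not overlapping). Wnt10a, a Wnt ligand that restrains adipogenesis, fell from 9.61 ± 3.85 to 0.168 ± 0.230, a ratio of 57.0 that was 38.0 without knockout C1 and 254 without knockout SE, where most of its 8 knockout reads were. Sox9, a chondrogenic factor, fell 7.27-fold (11.4-fold without knockout SE and 5.94-fold without wild-type C1), and Wnt6 fell 4.55-fold. Nr2f2, the orphan receptor COUP-TFII, fell 3.66-fold and Wwtr1, the PPAR-gamma co-repressor TAZ, fell 2.82-fold. Their calls were lost without wild-type C1 (Nr2f2, adjusted p = 0.0556) and without wild-type SE (Wwtr1, adjusted p = 0.0531).

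Other inhibitors rose. Klf2 was at 44.7 and 9.69 in wild-type C1 and SE and at 248, 235 and 202 in knockout C1, C2 and SE, an 8.39-fold rise that was 23.6-fold without wild-type C1 and 5.10-fold without wild-type SE. Tcf7l2, a Wnt effector, rose 4.04-fold, a call lost without wild-type C1 (adjusted p = 0.0576) or wild-type SE (adjusted p = 0.0541). Zfp521, which antagonises Zfp423 and Ebf1, rose 11.8-fold, or 7.55-fold without wild-type C1, where the call was lost (adjusted p = 0.0660), 26.7-fold without wild-type SE and 6.49-fold without knockout SE. Dlk1, the preadipocyte factor, missed the filter on low values with 63 wild-type and 15 knockout reads. Without wild-type C1, 1 inhibitor rose and 2 fell, and without wild-type SE 2 fell, and in both cases Wnt10a and Wnt6 no longer passed the filter.

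Markers of stromal adipocyte progenitors changed in both directions. Of 17 listed, 13 were tested, of which 6 rose and 3 fell (median 2.12), beside 17.2% and 17.1% of all tested genes. Cxcl12, the chemokine of marrow stroma, rose from 117 ± 3.70 to 11680 ± 3099 (log2 fold change 6.59, standard error 0.34, adjusted p = 8.37e-05). Kitl, the stem cell factor, rose 17.0-fold, F3, the tissue factor of a stromal subset, rose 15.6-fold, and Esm1 rose 50.3-fold. Cd24a rose 86.5-fold (163-fold without wild-type C1 and 58.8-fold without wild-type SE). Apoe, an apolipoprotein, was at 64.3, 345 and 74.8 in knockout C1, C2 and SE, the same order as Adipoq, and its 76.5-fold rise was 33.0-fold without knockout C2. Cd34 had 6246 wild-type reads and none in the knockout, and was at least 902-fold lower, and Ly6a fell 9.59-fold. Grem1, a BMP antagonist, fell 23.7-fold, or 41.0-fold without knockout C2 and 19.3-fold without knockout SE. Pdgfra and Pdgfrb, the PDGF receptors of such cells, were not called (adjusted p = 0.132 and 0.0550).

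Of the markers of brown and beige fat, most of those tested fell when all libraries were used. Of 15 listed, 7 were tested, of which 5 fell and 1 rose (median -2.49), beside 17.1% and 17.2% of all tested genes. The defining gene Ucp1 was not found by symbol among the 12621 genes. Tnfrsf9 fell from 76.4 ± 25.1 to 0.120 ± 0.134, a 639-fold difference (1625-fold without knockout C2 and 426-fold without knockout SE). Tmem26 fell 7.34-fold (11.04-fold without knockout SE and 5.51-fold without knockout C1), a call lost without wild-type SE. Dio2 had 146 wild-type reads and 1 in the knockout, with a ratio of rates of 205 (36.2 to 8139). Lhx8 had 230 and 0, at least 33.5-fold lower. Ppargc1a is on this list too, and the riser was Ebf2. Without wild-type C1, without wild-type SE or without both SE libraries, Ppargc1a, Tnfrsf9, Dio2 and Lhx8 no longer passed the filter. These genes had few or no knockout reads. Tmem26 was 7.66-fold lower without wild-type C1 and 7.02-fold lower without wild-type SE, and it did not pass the filter without both SE libraries. Prdm16, not called with all libraries, was 5.27-fold lower without wild-type C1 and 1.90-fold lower without wild-type SE. With a filter at 5, 3 of the listed genes fell.

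Lists of other cell types were read beside these results, because macrophages also use Lpl, Fabp4, Plin2 and Pparg and endothelium uses Fabp4. For comparison, 17.2% of all tested genes rose and 17.1% fell. Of 14 macrophage and leukocyte markers, 6 were tested and 3 rose, and their summed value was between 68.2 and 97.6 in the wild type and between 52.8 and 62.0 in the knockout. Lyz2 went from 4 reads to 1823 (values of 24.4 to 34.2 in the knockout) and Csf1r from 11 to 407, Lcp1 had 0 wild-type reads and 88 in the knockout, and Cd14 fell 6.10-fold. Ptprc, Adgre1, Itgam and 5 more were not found by symbol among the 12621 genes. Of 10 endothelial markers 2 were tested, with summed values from 1.62 to 2.12 in the wild type and from 4.19 to 6.73 in the knockout. Of 9 osteoblast markers 6 were tested, 3 rose and 2 fell, with sums from 51.6 to 92.7 in the wild type and 550.4, 1005 and 12473 in knockout C2, C1 and SE, mostly Col1a1. Of 9 epithelial and mesothelial markers 4 were tested, 3 fell and 1 rose, with sums from 321 to 368 in the wild type and from 7.0 to 12.7 in the knockout. In bulk RNA, fewer cells of a type and less RNA per cell cannot be told apart, and the part of other cell types in the changes of the 9 genes was not tested.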

How the data were processed

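Per the labels' protocols, the libraries were read from 1 end over 75 bp. The submitters' processing notes name STAR 2.5, featureCounts 1.5.2 and edgeR without a role, and the genome build and annotation are not given in the sources used here. The deposited values are a normalised signal: the authors divided each gene's count by a library size and scaled it to 1000000. The values of a library summed to between 931660 and 1052926, so this size was not simply the total of its reads. Dividing by the worth of 1 read gave whole numbers, to a tolerance of 0.02, in 100% of entries. Whether counting used the strand is not stated, and the annotation overlaps Pparg, Cebpa, Cebpb and Cebpd with 1 gene each on the other strand, so their values are uncertain to that extent.

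Column names gave the group of a library and no replicate number. Values were tested with limma 3.58.1 (trended eBayes) after adding a pseudocount of 0.5 and taking log2. Genes reaching 1 in 2 or more libraries entered, 12484 in all. P-values were adjusted by Benjamini-Hochberg, with a threshold of 0.05. Log2 fold changes understate changes of low genes. Ratios are of group means of normalised counts. A group without reads was set to a floor of 3 reads per library. Intervals (exact, 95%) and floors cover counting error only. Coordinates and lengths came from GENCODE M21 (GRCm38), which matched 12607 genes.

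Alternatives were rescaling (TMM, quantile, median of ratios), pseudocounts of 0.1 and 1, other filters and variance models, edgeR 4.0.16 (quasi-likelihood) and DESeq2 1.42.0 on recovered reads, each library left out, a suffix block and no SE libraries. The script was tested on simulated data. From each list up to 6 called genes per direction were named by smallest p-value. For Adipoq, Cebpb and Pparg the 3 genes with the closest pattern were named. The members and lists were chosen with earlier results of these data known. Calculations used R 4.3.3 and Python 3.11.15.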

Additional observations from a re-analysis of the deposited data

How the results depend on the processing

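The 6 calls among the 9 genes held in each of 18 alternatives, with log2 fold changes of 6.98 to 10.88 for Adipoq and 4.42 to 5.62 for Pparg. The sign of Plin2, which was never called, turned without wild-type SE (-0.19), without knockout C2 (-0.26) and with the suffix as a block (-0.023), and it was 0.42 without knockout SE. Without single libraries, 0 to 1 of the 9 genes fell, 9 to 16 effector genes rose and 1 to 4 fell, 2 to 5 activators fell, 1 to 3 inhibitors rose and 2 to 6 fell, and over all genes 1049 to 2332 rose and 594 to 2632 fell, against 2150 and 2129. Without a wild-type library, genes read almost only in the wild type no longer passed the filter, and other causes were not tested. With the suffix as a block 2 of the 9 genes fell, 14 activators rose and 7 fell, and 3530 genes rose and 4038 fell. Without both SE libraries 4 effector genes fell and 11 activators rose. With quantile normalization 1 of the 9 genes, in place of 2, was 2-fold higher in knockout C2 than C1, and 2, in place of 1, in SE than C1. The cause was not tested. The count tests on recovered reads gave 2040 higher and 2039 lower genes (edgeR) and 2600 and 2236 (DESeq2). No paired analysis was possible because the columns carry none of the replicate numbers of the sample titles. The suffix block above matches libraries by a shared suffix instead, whose meaning is not given. Depth limits the wild-type levels of Adipoq and Plin1, which rest on 8 and 11 reads.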

Other observations

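The tested genes around each of the 9 on its chromosome were also read, 25 on each side where the chromosome had them. Around Adipoq and Pparg, 15 and 19 of 50 neighbours were higher in the knockout and 1 and 0 lower, with median log2 fold changes of 0.70 and 0.75. Over all tested genes 17.2% were higher, 17.1% lower and the median was -0.09. Around Cebpd, which was not called at -0.68, 22 of 50 neighbours were higher and 0 lower, with a median of 0.82. Around Plin2 6 were higher and 19 lower, with a median of -0.85. The medians lay between -0.32 and -0.12 around Lpl, Fabp4, Plin1, Cebpa and Cebpb, with 38 neighbours for Fabp4. These neighbourhoods were looked at after the values were seen, and no test was made.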
